A study of Mus musculus with 9 samples.

Results

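NF-kB is a family of dimeric transcription factors, and the 10 genes described here encode its 5 subunits and 5 of the proteins that feed back on it. They are Nfkb1, Nfkb2, Rel, Rela and Relb for the subunits, and Nfkbia, Nfkbiz, Tnfaip3, Tnip3 and Bcl3 for the regulators. They were picked by name from the 20418 gene symbols in the tables. Nfkbiz, with 3 listed transcripts, is represented by the transcript of highest mean count. All 10 passed the filter on low counts, which kept 13479 genes. On the mm8 annotation of the tables, Nfkb2 (NM_019408) and Rela (NM_009045) lie on chromosome 19, Relb (NM_009046) and Bcl3 (NM_033601) on chromosome 7, Nfkb1 (NM_008689) on 3 and Rel (NM_009044) on 11. Nfkbia (NM_010907) lies on chromosome 12, Nfkbiz (NM_030612) on 16, Tnfaip3 (NM_009397) on 10 and Tnip3 (NM_001001495) on 6. The RNA came from splenic CD8+ T cells of female C57BL/6 mice aged 6 weeks. The 8 treated libraries cover interleukin-15 (IL-15) and interleukin-2 (IL-2), each at 500 nM and 1 nM, for 24 h and 4 h, and 1 library of untreated cells is their reference. Each library holds RNA of 3 samples treated alike and pooled, so no condition has a second library. No sorting step is named. Untreated cells carry no time label, so that effects of the cytokine and of time in culture cannot be told apart. Counts in the tables, with 1 transcript per gene, summed to between 27158143 and 48799962 per library.

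In resting cells NF-kB dimers are held in the cytoplasm by inhibitory IkB proteins. Signals from antigen, costimulatory and TNF-type receptors activate the IKK kinase complex, the IkB protein is degraded and the dimer enters the nucleus, where it activates genes that include its own inhibitors. IL-2 and IL-15 act mainly through STAT5, which they activate through shared receptor chains, and not through the receptors classically coupled to IKK. Within the family, Rela and Rel encode subunits with a transactivation domain, as does Relb. Nfkb1 and Nfkb2 encode precursors that are processed to DNA-binding subunits, and the Nfkb2 product pairs mostly with RelB in the non-canonical route. Nfkbia encodes IkB-alpha, Tnfaip3 a ubiquitin-editing enzyme that shuts down signalling to IKK, and Tnip3 a member of the family of proteins that bind it. Bcl3 and Nfkbiz encode atypical IkB proteins that act in the nucleus and can promote transcription from some NF-kB sites.

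Sequences before the start sites are shown because several of these genes hold matches to the NF-kB motif there. RefSeq promoter windows (GRCm38.p6, 250 bases before to 50 after each start) were at hand for 7 of the 10 members, namely Nfkb2, Rel, Rela, Nfkbia, Tnfaip3, Tnip3 and Bcl3, in 10 windows. The NF-kB consensus decamer, searched on both strands, was found in at least 1 window of 6 of the 7, all except Rela, and in 8 of the 10 windows. Of the Nfkb2 windows, 2 overlap and share 1 match, so these windows are not all separate. Of all 32851 windows in the table, 8.46% held it. The STAT-type motif TTCNNNGAA, which reads the same on both strands, was in 1 window of Nfkb2 and in 8.3% of all windows. In the stretches below, NF-kB matches are in capitals, and adjoining capitals in Nfkb2 and Rel are 2 overlapping matches. Nfkb2 and Tnfaip3 have several windows, and for each only the window with matches in the stretch before the start is shown. The other window of Tnfaip3 held no match. The 130 bases before the start follow. They are Nfkb2 (chr19:46304607-46304736, plus strand), Rel (chr11:23770970-23771099, minus), Nfkbia (chr12:55492648-55492777, minus), Tnfaip3 (chr10:19015411-19015540, minus), Tnip3 (chr6:65590268-65590397, plus) and Rela, which holds no match (chr19:5637411-5637540, plus).
Nfkb2: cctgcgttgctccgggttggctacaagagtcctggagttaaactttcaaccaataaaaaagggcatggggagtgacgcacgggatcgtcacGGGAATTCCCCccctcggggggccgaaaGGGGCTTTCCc
Rel: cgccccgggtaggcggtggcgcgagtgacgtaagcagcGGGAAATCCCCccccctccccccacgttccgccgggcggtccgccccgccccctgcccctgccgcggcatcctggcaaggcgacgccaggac
Nfkbia: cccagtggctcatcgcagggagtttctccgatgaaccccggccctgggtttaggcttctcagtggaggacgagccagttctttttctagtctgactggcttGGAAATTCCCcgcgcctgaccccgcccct
Tnfaip3: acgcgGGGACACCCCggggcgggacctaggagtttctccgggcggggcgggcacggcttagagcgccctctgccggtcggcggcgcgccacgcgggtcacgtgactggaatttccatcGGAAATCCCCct
Tnip3: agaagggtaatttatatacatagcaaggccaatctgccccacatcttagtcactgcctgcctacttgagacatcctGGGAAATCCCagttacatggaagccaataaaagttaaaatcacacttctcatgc
Rela: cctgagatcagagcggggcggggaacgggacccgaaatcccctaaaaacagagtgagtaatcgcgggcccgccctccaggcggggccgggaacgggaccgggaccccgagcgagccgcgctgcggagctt
The match of Bcl3 lay just after its start and is not shown. A match describes these letters only, and no link between matches and changes in level was tested.

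The isolate was checked against marker lists, in TMM-scaled CPM, the read count as a share of a library's scaled total. Cd8a measured between 393 and 985 CPM, and the 12 T cell markers summed to between 4299 and 6800 CPM in treated libraries, against 7172 CPM in the untreated library. RNA of other splenic cell types was detected as well. The 12 B cell markers summed to between 248 and 302 CPM at 500 nM and 24 h, 368 to 397 CPM at 500 nM and 4 h, 772 to 788 CPM at 1 nM and 24 h and 529 to 561 CPM at 1 nM and 4 h, against 805 CPM untreated. The B cell factor Pax5 had no read in 6 of the 9 libraries. The 13 listed myeloid markers, of which complement gene C1qc was the highest in the untreated library, summed to between 41.0 and 45.4 CPM at 500 nM and 24 h, 208 to 253 CPM at 500 nM and 4 h, 772 to 992 CPM at 1 nM and 24 h and 332 to 344 CPM at 1 nM and 4 h, against 2191 CPM untreated. C1qa, C1qb, C1qc, Csf1r, Emr1, Fcgr3, Itgam and Vcam1 peaked in the untreated library. Lyz2, Lyz1 and Cd68 peaked at 1 nM and 24 h instead. With IL-15 there they had 217, 87.5 and 41.7 CPM, against 20.9, 9.59 and 21.1 CPM untreated. Cd14 and Mpeg1 peaked in libraries of 4 h. The 9 dendritic cell markers summed to between 59.6 and 60.4 CPM at 500 nM and 24 h, 130 to 167 CPM at 500 nM and 4 h, 72.7 to 94.1 CPM at 1 nM and 24 h and 123 to 139 CPM at 1 nM and 4 h, against 139 CPM untreated. The highest of the 9 in each treated library was the chemokine gene Ccl22, at 27.3 to 45.4 CPM at 24 h and 72.2 to 118 CPM at 4 h, against 14.4 CPM untreated. The integrin gene Itgax measured 1.37 to 5.33 CPM at 24 h and 5.66 to 14.3 CPM at 4 h, against 47.2 CPM untreated, and Clec9a lay between 0 and 1.58 CPM. The 6 NK markers summed to 15.6 to 80.7 CPM with cytokine, against 186 CPM untreated, with Ncr1 under 0.60 CPM throughout. Tyrobp and Fcer1g, at 94.7 and 88.4 CPM untreated, made up most of this sum in every library. Each of the other NK markers had at most 3.19 CPM in any library. Like C1qa, C1qb, C1qc and Csf1r of the myeloid list, Tyrobp and Fcer1g peaked in the untreated library. The 4 CD4+ T cell markers summed to 22.4 to 40.9 CPM. Foxp3 was the highest of the 4 in every library, at 15.3 to 29.7 CPM, and Cd4 itself had 0.23 to 5.62 CPM. NF-kB genes are expressed in all these cells, and the part of these cells in the results below was not tested. In bulk RNA, fewer cells of a type and less RNA per cell cannot be told apart.

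**Figure D1:**
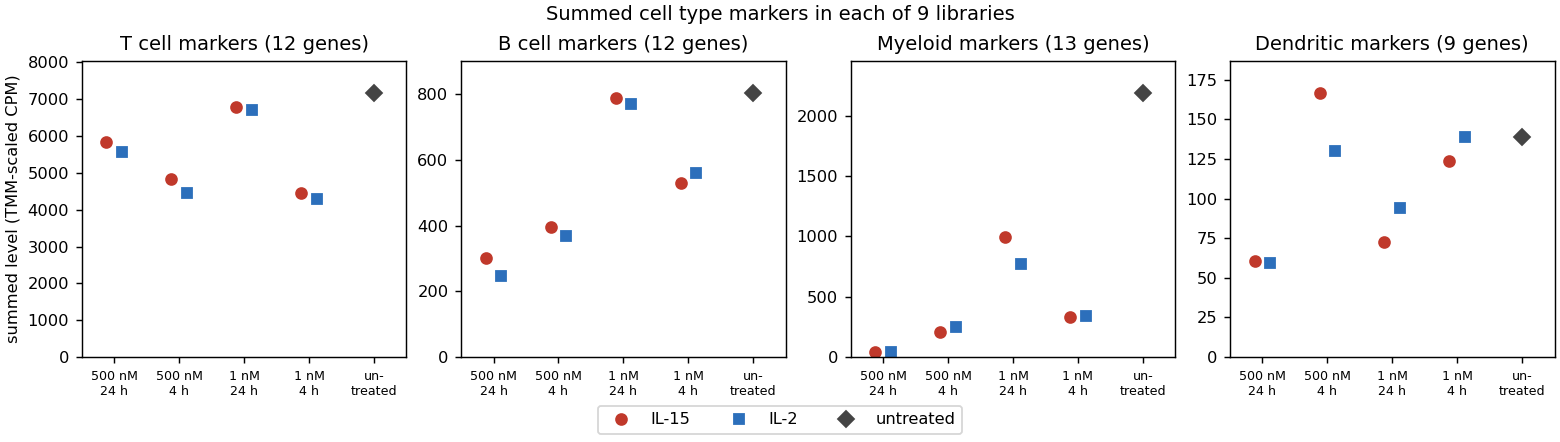
Summed level of 4 marker lists (vertical axes, TMM-scaled CPM) in each library, with IL-15 as circles, IL-2 as squares and the untreated library as a diamond. Myeloid markers reach 2191 CPM in the untreated library and lie between 41.0 and 45.4 CPM at 500 nM and 24 h.

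Per kilobase of transcript, the inhibitor gene Nfkbia and the subunit gene Rela were the most abundant members. Their median deposited RPKM over the 9 libraries was 127 for Nfkbia and 108 for Rela, followed by Nfkb2 at 41.0, Bcl3 at 39.0, Relb at 34.5 and Nfkb1 at 32.1. Those 4 are close, and their ranges across libraries overlap. Nfkbiz at 8.51 and Tnfaip3 at 8.21 were lower, Rel was at 1.45 and Tnip3 at 0.36. The members also differed in how far they moved between libraries. Rela spanned 1.84-fold and Nfkb1 2.06-fold between their lowest and highest CPM, Nfkbia 3.20-fold, Nfkb2 3.31-fold and Relb 3.97-fold. The spans of Rel, Nfkbiz, Tnfaip3 and Bcl3 were 5.26-fold, 9.52-fold, 10.3-fold and 16.7-fold. Tnip3 had between 1 and 179 reads per library, and its span is not given as a fold.

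**Figure D2:**
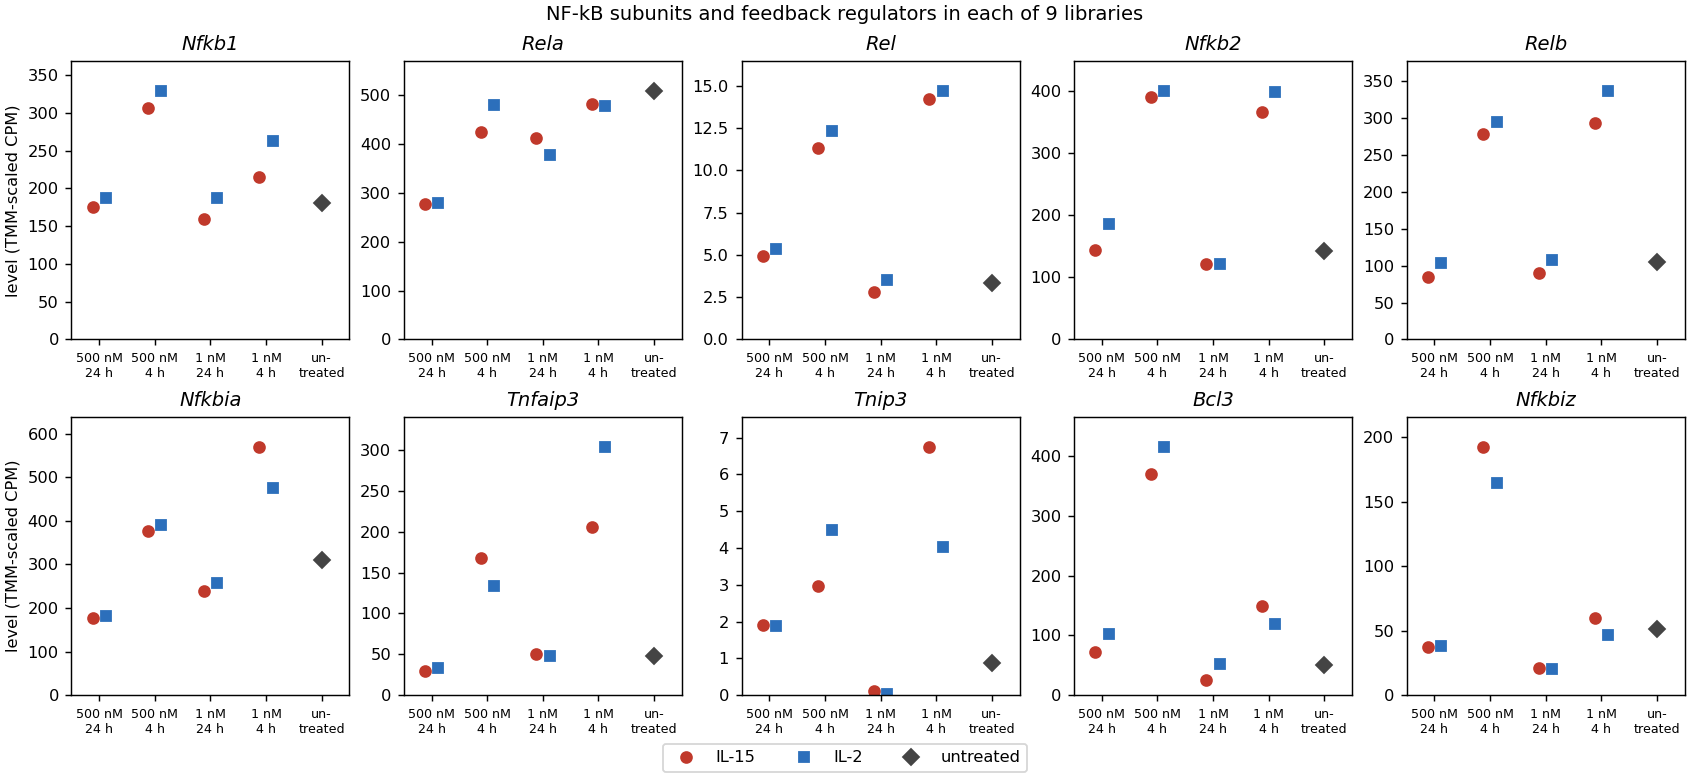
Level of each member (vertical axes from 0, TMM-scaled CPM) in the 9 libraries, with IL-15 as circles, IL-2 as squares and the untreated library as a diamond. In every panel the 4 libraries of 24 h lie below the 4 of 4 h, and Bcl3 and Nfkbiz are highest at 500 nM and 4 h.

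The comparison of 24 h with 4 h of cytokine asked how the early state of the pathway compares with the late one. All 10 members were lower at 24 h. For each of them every one of the 4 libraries of 24 h lay below every one of the 4 of 4 h, which held, in that direction, for 5.73% of the 13479 genes, and in the other for 5.06%. In the fit of cytokine, dose and time, 8 of the 10 fell at an adjusted p under 0.05 and 0 rose, where 5.3% of genes were called, 2.62% lower and 2.69% higher. The median log2 change was -1.67 over the members and 0.00 over all genes. Rela, at -0.49 ± 0.16 (log2, SE, edgeR adjusted p = 0.10), and Tnip3, at -3.39 ± 1.24 (edgeR adjusted p = 0.14), did not pass. Both passed with DESeq2 (adjusted p = 0.034 and 0.0016) and with a dose by time term added (edgeR adjusted p = 0.013 and 8.7e-04). With limma-voom the count stayed at 8. The count was 5 without the 500 nM, 24 h library of IL-15, and Nfkb1 lost its call in 7 of the 8 fits that left out a treated library (edgeR adjusted p 0.056 to 0.20). Without the IL-15 library of 500 nM and 24 h the calls of Rel (0.062) and Nfkbia (0.054) were lost as well, and that of Rel also without any 1 of the 4 IL-2 libraries (0.051 to 0.067).

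Among the subunits, the pair of the non-canonical route fell with time at both doses. Nfkb2 measured 144 and 185 CPM with IL-15 and IL-2 at 500 nM and 24 h, against 389.6 and 399.7 CPM at 500 nM and 4 h. At 1 nM it measured 121 and 122 CPM at 24 h, against 366 and 398 CPM at 4 h. The 24 h libraries thus lay near the untreated level of 143 CPM and the 4 h libraries above it. Relb measured 84.8 and 104 CPM at 500 nM and 24 h, against 278 and 295 CPM at 4 h, with IL-15 before IL-2. With 1 nM, it measured 89.9 and 107 CPM at 24 h, against 294 and 337 CPM at 4 h, and the untreated library had 105 CPM. By time, Nfkb2 fell by 1.27 ± 0.18 at 500 nM and by 1.65 ± 0.18 at 1 nM (log2, SE; edgeR adjusted p = 3.7e-04 and 7.8e-04). Relb fell by 1.61 ± 0.17 and 1.68 ± 0.17 (edgeR adjusted p = 7.6e-05 and 5.1e-04).

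Of the canonical subunits, Rel fell at both doses, and Nfkb1 and Rela at 500 nM. Nfkb1 measured 176 and 187 CPM with IL-15 and IL-2 at 500 nM and 24 h, against 306 and 329 CPM at 4 h. At 1 nM it measured 160.2 and 187 CPM at 24 h, against 215 and 263 CPM at 4 h, beside 181 CPM untreated. It fell by 0.81 ± 0.17 at 500 nM (edgeR adjusted p = 0.0046; 0.076 without IL-15 and 0.12 without IL-2 of 500 nM and 24 h) and stood at -0.46 ± 0.17 at 1 nM (edgeR adjusted p = 0.20). Rela, the most abundant subunit, measured 277 and 279.8 CPM at 500 nM and 24 h, against 424 and 479 CPM at 4 h. With 1 nM, it had 413 and 376 CPM at 24 h, against 482 and 478 CPM at 4 h, and its highest level, 508 CPM, was in the untreated library. At 500 nM it fell by 0.70 ± 0.17 with time (edgeR adjusted p = 0.011; 0.16 without either library of 500 nM and 24 h and 0.081 without the 500 nM, 4 h library of IL-2). Rel, a subunit whose gene is itself inducible in T cells, had few reads. It measured 4.96 and 5.33 CPM at 500 nM and 24 h, against 11.3 and 12.3 CPM at 4 h. At 1 nM it measured 2.79 and 3.54 CPM at 24 h, against 14.2 and 14.7 CPM at 4 h, and 3.33 CPM (103 reads) untreated. It fell by 1.20 ± 0.35 at 500 nM and by 2.20 ± 0.36 at 1 nM (edgeR adjusted p = 0.026 and 0.0086). Both calls were lost in fits without 1 library of that dose, with adjusted p from 0.095 to 0.20 at 500 nM without any of its 4 libraries and 0.071 to 0.076 at 1 nM without either library of 4 h.

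The feedback inhibitor genes Nfkbia and Tnfaip3 fell with time at both doses. Nfkbia measured 178 and 181 CPM with IL-15 and IL-2 at 500 nM and 24 h, against 377 and 391 CPM at 4 h. With 1 nM, it measured 239 and 257 CPM at 24 h, against 570.4 and 476 CPM at 4 h, and 311 CPM untreated. It fell by 1.10 ± 0.18 at 500 nM and by 1.08 ± 0.18 at 1 nM (edgeR adjusted p = 8.8e-04 and 0.0086), and the second call was lost without the 1 nM, 4 h library of IL-15 (0.069). Tnfaip3 had the largest fall among the members called in the common fit, 2.32 ± 0.18 on the log2 scale (edgeR adjusted p = 0.0014). It measured 29.6 and 32.7 CPM at 500 nM and 24 h, against 168 and 134 CPM at 4 h. At 1 nM it measured 50.8 and 47.8 CPM at 24 h, against 205 and 304 CPM at 4 h, beside 48.4 CPM untreated. Tnfaip3 fell by 2.28 ± 0.23 at 500 nM and fell by 2.36 ± 0.23 at 1 nM (edgeR adjusted p = 4.4e-05 and 3.7e-04). The dendritic cell marker sum, too, was lower at 24 h than at 4 h at both doses, without overlap. Its largest part was Ccl22, at 1 nM 27.3 and 45.4 CPM with IL-15 and IL-2 at 24 h, against 72.2 and 81.9 CPM at 4 h. At that dose Itgax, Flt3, Zbtb46, Xcr1 and Clec9a were lower at 24 h as well. Fscn1 was higher, at 15.8 and 19.8 CPM, against 9.25 and 7.24 CPM at 4 h. The B cell and myeloid sums were lower at 24 h at 500 nM and higher at 1 nM. The T cell marker sum was higher at 24 h than at 4 h at both doses, without overlap. The part of these cell types in the fall with time was not tested.

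The genes of the nuclear IkB proteins, Bcl3 and Nfkbiz, also fell with time at both doses. Bcl3 measured 72.7 and 102 CPM with IL-15 and IL-2 at 500 nM and 24 h, against 369.7 and 416 CPM at 4 h. With 1 nM, it measured 24.9 and 52.1 CPM at 24 h, against 149 and 119 CPM at 4 h, and 49.6 CPM untreated. It fell by 2.19 ± 0.27 at 500 nM and by 1.88 ± 0.28 at 1 nM (edgeR adjusted p = 1.8e-04 and 0.0040), the second call with an adjusted p of 0.051 without the 1 nM, 4 h library of IL-15. Nfkbiz measured 37.0 and 38.1 CPM at 500 nM and 24 h, against 193 and 164 CPM at 4 h. At 1 nM it measured 21.2 and 20.2 CPM at 24 h, against 59.6 and 46.3 CPM at 4 h, and 51.6 CPM untreated. It fell by 2.24 ± 0.20 at 500 nM and by 1.35 ± 0.19 at 1 nM (edgeR adjusted p = 2.4e-05 and 0.0038). In all, 9 of 10 members fell with time at 500 nM, where 26.3% of genes were called and 12.9% lower, and 8 of 10 at 1 nM, where 2.89% were called, 1.51% higher and 1.38% lower. The count at 1 nM was 4 without the 1 nM, 4 h library of IL-15.

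**Figure D3:**
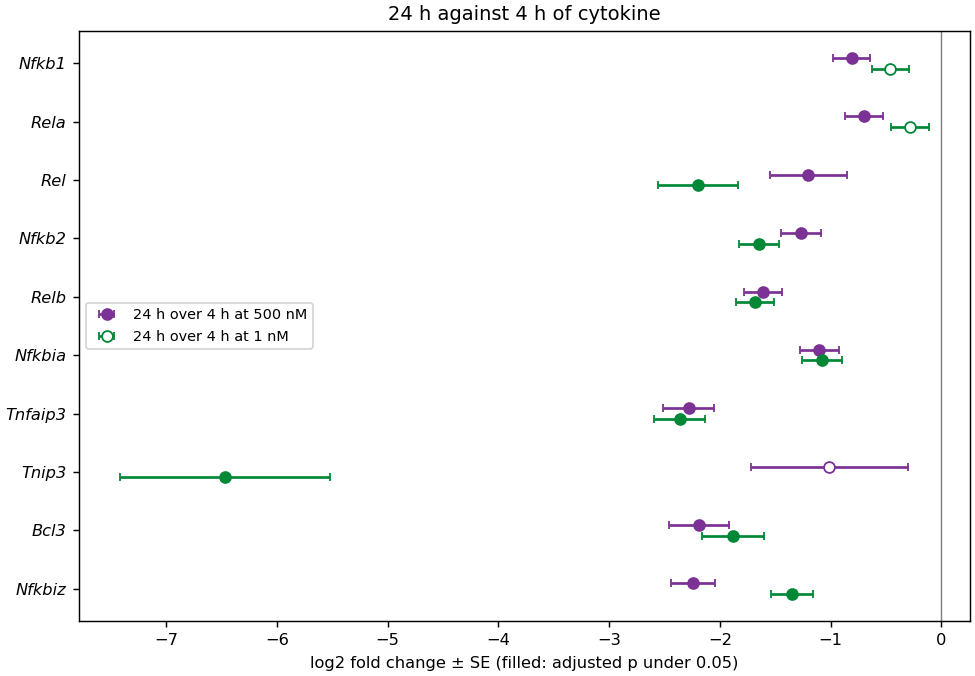
Log2 fold change of 24 h over 4 h for each member at 500 nM and at 1 nM (points with SE, horizontal axis), filled where the adjusted p was under 0.05. All points lie left of 0, from -0.28 for Rela at 1 nM to -6.47 for Tnip3 at 1 nM, a value that rests on 5 reads at 24 h.

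Set against the untreated library, between 5 and 7 of the 10 members rose at 4 h, depending on dose, and few passed the test at 24 h. After 4 h at 500 nM, 7 of the 10 rose and 0 fell, where 16.4% of genes were called, 7.92% higher and 8.47% lower. After 4 h at 1 nM, 5 rose and 0 fell, where 6.31% of genes were called, 2.75% higher and 3.55% lower; the count was 3 without the 1 nM, 4 h library of IL-15. The medians were 1.56 and 1.44 over the members, and 0.02 and 0.03 over all genes. Each comparison with untreated cells uses the same untreated library, which also had the highest T cell, myeloid and B cell marker sums. At 4 h, Tnfaip3 rose by 1.65 ± 0.29 at 500 nM and by 2.39 ± 0.30 at 1 nM (log2, SE; edgeR adjusted p = 0.0021 and 0.0010). Relb rose by 1.45 ± 0.22 and 1.58 ± 0.23 (edgeR adjusted p = 9.8e-04 and 0.0024), and Nfkb2 by 1.47 ± 0.23 and 1.42 ± 0.23 (edgeR adjusted p = 0.0011 and 0.0048). Bcl3 rose by 2.99 ± 0.38 and 1.46 ± 0.35 (edgeR adjusted p = 3.0e-04 and 0.030; the second 0.12 without the 1 nM, 4 h library of IL-15). Rel rose by 1.83 ± 0.47 and 2.12 ± 0.48 (edgeR adjusted p = 0.020 and 0.024), but not by limma-voom (0.054 and 0.058). The calls of Rel were also lost without the 500 nM, 4 h library of IL-15 (0.074), without the 1 nM, 4 h library of IL-15 (0.074) and without the 1 nM, 4 h library of IL-2 (0.082).

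Of the other members, Nfkbiz and Nfkb1 passed at 4 h only at 500 nM. Nfkbia, Tnip3 and Rela passed at neither dose in edgeR's fit. Nfkbiz rose by 1.79 ± 0.25 at 500 nM (edgeR adjusted p = 5.8e-04), while its 59.6 and 46.3 CPM at 1 nM lay on either side of the untreated 51.6 CPM. Nfkb1 rose by 0.81 ± 0.22 at 500 nM (edgeR adjusted p = 0.024; 0.071 to 0.088 without either library of 500 nM and 24 h or without the 500 nM, 4 h library of IL-15). Nfkbia stood at 0.75 ± 0.22 at 1 nM (edgeR adjusted p = 0.073; 0.016 by DESeq2), and at 0.30 ± 0.22 at 500 nM (edgeR adjusted p = 0.39). Tnip3 stood at 2.13 ± 0.97 and 2.59 ± 1.00 at 500 nM and 1 nM (edgeR adjusted p = 0.17 and 0.16). Its 579 reads over the 4 libraries of 4 h, against 27 reads untreated, are a scaled ratio of 5.07 (95% counting interval 3.45 to 7.77). This interval pools the doses and cytokines and leaves out the spread between libraries, so it is no test of a rise. The level of Rela in the 4 libraries of 4 h was between 424 and 482 CPM, against 508 CPM untreated.

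After 24 h fewer members passed the test against the untreated library. At 500 nM, 2 of the 10 fell and 0 rose, where 25.2% of genes were called, 12.3% lower and 12.8% higher. They were Rela, which fell by 0.87 ± 0.21 (edgeR adjusted p = 0.0089), and Nfkbia, which fell by 0.79 ± 0.21 (edgeR adjusted p = 0.016). Both calls were lost without either library of 500 nM and 24 h (0.10 to 0.17). Tnfaip3 stood at -0.64 ± 0.26 and Bcl3 at 0.80 ± 0.34 there (edgeR adjusted p = 0.098 and 0.10). Bcl3 passed in the fits without the IL-15 (0.037) or the IL-2 (0.041) library of 1 nM and 24 h. At 1 nM and 24 h, 1 of the 10 fell, where 1.65% of genes were called and 0.786% lower, and it was Nfkbiz, which fell by 1.32 ± 0.23 (edgeR adjusted p = 0.013; 0.059 without the 1 nM, 24 h library of IL-2). Tnip3 stood at -3.88 ± 0.99 (edgeR adjusted p = 0.074; 0.013 by DESeq2). Since Tnip3 had 4 and 1 reads with IL-15 and IL-2 there, its fitted change depends on the prior count.

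**Figure D4:**
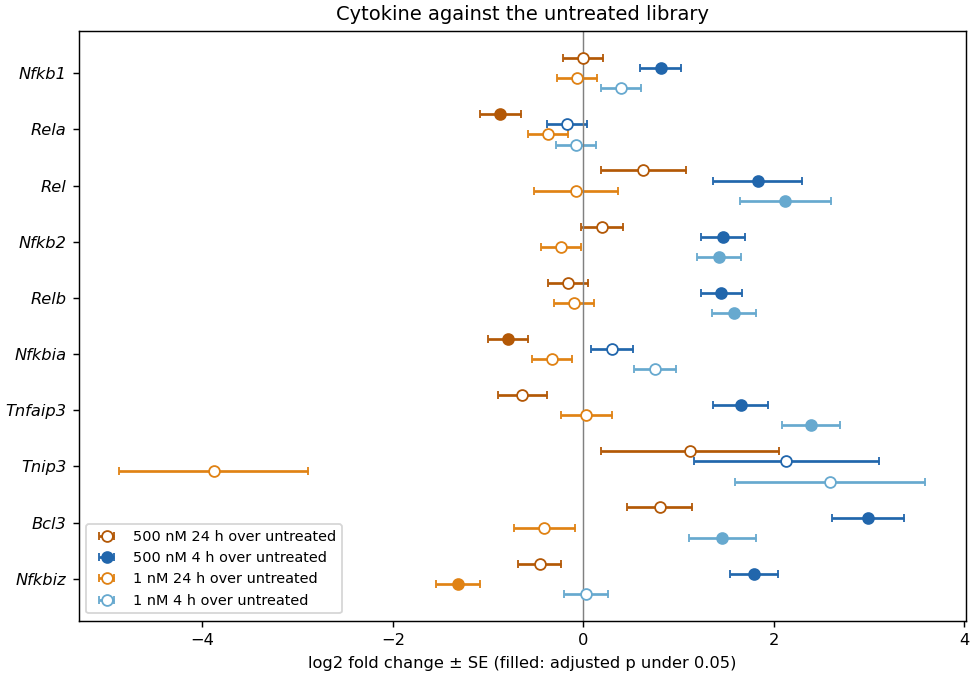
Log2 fold change over the untreated library for each member at 4 combinations of dose and time (points with SE), each the mean of the IL-15 and IL-2 libraries, filled where the adjusted p was under 0.05. The 4 h points of Nfkb2, Relb, Rel, Tnfaip3 and Bcl3 lie right of 0 at both doses, and the 24 h points lie nearer to 0 or left of it.

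The comparison of 500 nM with 1 nM asked which members depend on cytokine dose. The dose changed 2 members upwards, Bcl3 and Nfkbiz, and the canonical feedback gene Tnfaip3 downwards. Over both cytokines and times, Bcl3 rose by 1.37 ± 0.22 and Nfkbiz by 1.31 ± 0.22 (log2, SE; edgeR adjusted p = 0.0055 and 0.0056), and Tnfaip3 fell by 0.70 ± 0.18 (edgeR adjusted p = 0.028). These are 3 of 10 members, where 16.1% of genes were called, 7.63% higher and 8.47% lower. For no member did the 4 libraries of 500 nM lie all on 1 side of the 4 of 1 nM, as 18.9% of genes did, 8.55% higher and 10.3% lower. The call of Tnfaip3 was lost without any 1 of IL-15 or IL-2 at 500 nM and 24 h, IL-15 or IL-2 at 1 nM and 24 h, IL-2 at 500 nM and 4 h and IL-2 at 1 nM and 4 h (0.054 to 0.098). Nfkbia stood at -0.46 ± 0.14 (edgeR adjusted p = 0.062). It passed with DESeq2 (0.023), limma-voom (0.049) and a dose by time term (0.015).

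At 4 h alone, Nfkbiz and Bcl3 passed and the other 8 members did not, where 10.1% of genes were called, 5.42% higher and 4.63% lower. Nfkbiz was 1.76 ± 0.19 higher at 500 nM (edgeR adjusted p = 1.9e-04) and Bcl3 1.52 ± 0.27 higher (edgeR adjusted p = 0.0032; 0.051 without the 500 nM, 4 h library of IL-15 and 0.055 without the 1 nM, 4 h library of IL-2). Tnfaip3 stood the other way at -0.74 ± 0.22, with an edgeR adjusted p of 0.05004 and one of 0.018 by DESeq2. It measured 168 and 134 CPM with IL-15 and IL-2 at 500 nM, against 205 and 304 CPM at 1 nM, and these libraries did not overlap, as for 49.7% of genes. Nfkbia and Nfkb1 stood at -0.45 ± 0.18 and 0.42 ± 0.17 (edgeR adjusted p = 0.15 and 0.17). Nfkb2 and Relb, which had risen over the untreated library, overlapped between the doses at 4 h. The test of the dose was passed by 2 of the members that rose at 4 h and not by the others.

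At 24 h, 5 members passed, where 31.2% of genes were called, 15.6% in each direction. Bcl3 rose by 1.21 ± 0.27 and Nfkbiz by 0.86 ± 0.19 (edgeR adjusted p = 0.0045 and 0.0049), and Tnip3 by 4.99 ± 0.92 (edgeR adjusted p = 0.0015). Rela fell by 0.50 ± 0.17 and Tnfaip3 by 0.66 ± 0.22 (edgeR adjusted p = 0.043 and 0.036). Only 1 of the 5 calls held without the 500 nM, 24 h library of IL-2, that of Tnip3, 2 held without the 1 nM, 24 h library of IL-15, and 3 without the 500 nM, 24 h library of IL-15 or the 1 nM, 24 h library of IL-2. With RLE scaling the call of Rela was lost (0.051). Nfkb2 and Nfkbia stood at 0.43 ± 0.18 and -0.47 ± 0.18 (edgeR adjusted p = 0.085 and 0.065). The summed myeloid markers were 41.0 and 45.4 CPM with IL-15 and IL-2 at 500 nM and 24 h, against 992 and 772 CPM at 1 nM and 24 h, and the B cell markers 302 and 248 CPM, against 788 and 772 CPM. Their part in these dose differences was not tested.

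**Figure D5:**
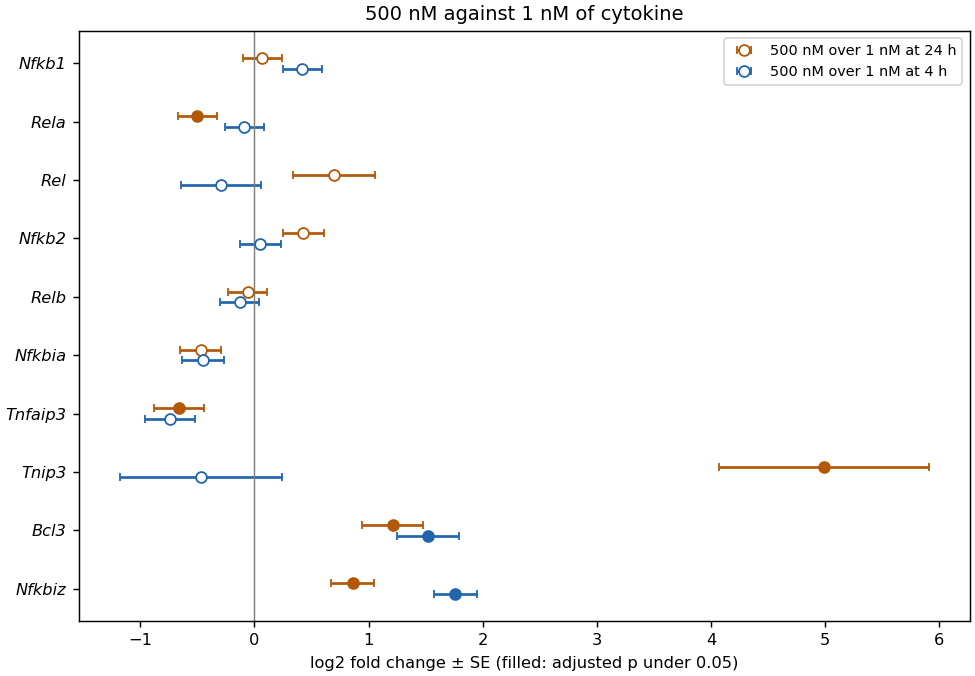
Log2 fold change of 500 nM over 1 nM for each member at 24 h and at 4 h (points with SE), filled where the adjusted p was under 0.05. Bcl3 and Nfkbiz lie between 0.86 and 1.76 at both times, Tnfaip3 lies left of 0 at both, and Tnip3 lies at 4.99 at 24 h.

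Tnip3 was the member whose dose effect was called different between times by edgeR. It measured 1.90 and 1.87 CPM (64 and 66 reads) with IL-15 and IL-2 at 500 nM and 24 h, against 0.10 and 0.02 CPM (4 reads and 1 read) at 1 nM and 24 h. At 4 h it measured 2.98 and 4.48 CPM at 500 nM (102 and 148 reads), against 6.76 and 4.04 CPM at 1 nM (179 and 150 reads). It had from 102 to 179 reads in the libraries of 4 h and 5 reads in all at 1 nM and 24 h. The untreated library had 0.87 CPM (27 reads). At 24 h the scaled ratio of 500 nM over 1 nM was 34.0 (95% counting interval 14.2 to 107), and at 4 h it was 0.72 (0.61 to 0.85). The intervals cover counting error only. With time, Tnip3 fell by 6.47 ± 0.95 at 1 nM in the fit (edgeR adjusted p = 0.0040; 0.059 without the 1 nM, 4 h library of IL-15) and stood at -1.01 ± 0.71 at 500 nM (edgeR adjusted p = 0.35). The dose by time term was 5.46 ± 1.15 (edgeR adjusted p = 0.015), and it was the single member past the threshold, where 8.81% of genes were called, 4.06% higher and 4.76% lower. The call was lost without the IL-15 library of 1 nM and 4 h (0.083) or of 500 nM and 4 h (0.060), or the IL-2 library of 500 nM and 24 h (0.056). Nfkbiz stood at -0.90 ± 0.27 (edgeR adjusted p = 0.060; 0.026 by DESeq2), its dose difference being smaller at 24 h than at 4 h.

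No member was called different between IL-15 and IL-2. In edgeR's fit 0 of 13479 genes passed an adjusted p of 0.05 (0.0% called), with 125 genes and 0 members at an unadjusted p under 0.05, while DESeq2 called 2 genes and 0 members. In the matched pairs, which have 1 library a side and no test, the ratios of IL-15 over IL-2, as log2(CPM + 0.5), ran from -0.49 to 0.02 over the 10 members at 500 nM and 24 h and from -0.52 to 0.32 at 500 nM and 4 h. At 1 nM they ran from -1.05 to 0.21 at 24 h and from -0.57 to 0.68 at 4 h. Only Bcl3 at 1 nM and 24 h, with 24.9 CPM for IL-15 and 52.1 CPM for IL-2, differed by at least 2-fold, as 9.56% of genes did in that pair. In the other pairs 0 members and 3.87% of genes (500 nM, 24 h), 8.64% (500 nM, 4 h) and 9.35% (1 nM, 4 h) did. Nfkb1, Nfkb2, Rel and Relb were lower with IL-15 in all 4 pairs, by at most 0.37, as 4.97% of genes were, and 0 members were higher in all 4, as 4.84% of genes were. The others went both ways, with Nfkbiz and Tnip3 higher in 3 pairs, Rela and Tnfaip3 in 2 and Nfkbia and Bcl3 in 1. Terms for cytokine by dose and cytokine by time passed for 0 members each, where 0.0148% of genes (0.00742% in each direction) and 0.0% were called. For Bcl3 the cytokine by time term was -0.85 ± 0.30 at an unadjusted p of 0.015 and an adjusted p of 1 (edgeR).

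Other genes of the pathway were counted over a list of 59 symbols, 56 of them in the tables and tested. The list was drawn up by role with earlier results of these data known, so its counts are a description. With time, 13 of the 56 fell and 0 rose (median -0.47), where 2.62% of all genes were lower and 2.69% higher (median 0.00). Among other IkB genes, Nfkbie fell by 1.07 ± 0.18 and Nfkbid by 1.03 ± 0.19. Birc3, a ubiquitin ligase that is itself an NF-kB target, fell by 2.06 ± 0.21 at 500 nM and fell by 0.94 ± 0.20 at 1 nM, and Bcl10, an adaptor between antigen receptor and IKK, fell by 0.76 ± 0.15. Of 15 known target genes 5 fell and 0 rose, with the activation marker Cd83 falling by 2.54 ± 0.21, the adhesion gene Icam1 by 1.21 ± 0.21 and the stress gene Gadd45b by 1.36 ± 0.20. Bcl2a1b and Bcl2a1d, survival genes whose near-identical copies make their counts uncertain, fell by 1.35 ± 0.18 and 1.43 ± 0.18.

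Over the untreated library, 27 of the 56 rose and 3 fell after 4 h at 500 nM, where 7.92% of all genes were higher and 8.47% lower. After 4 h at 1 nM, 14 rose and 6 fell, where 2.75% were higher and 3.55% lower. The medians were 1.00 and 0.37, and 0.02 and 0.03 over all genes. Of the 15 target genes, 11 rose at 500 nM and 6 at 1 nM, and 0 fell at either dose. Of 7 TNF-type ligand genes, 5 rose at 500 nM and 2 rose and 1 fell at 1 nM. Tnf rose by 4.32 ± 0.43 at 500 nM and by 2.01 ± 0.38 at 1 nM, and Lta, the lymphotoxin alpha gene, by 5.35 ± 0.73 at 500 nM. Of 11 tested kinases and adaptors of the canonical route, 2 rose and 1 fell at 500 nM, counts too small to set against these shares. Bcl10 rose by 0.95 ± 0.23, the kinase gene Ripk1 by 1.07 ± 0.29, and the adaptor gene Traf5 fell by 1.64 ± 0.21. The IKK subunit genes Chuk, Ikbkb and Ikbkg were not called in either comparison of 4 h with untreated cells. Chuk had 16.4 and 18.4 CPM for IL-15 and IL-2 at 500 nM and 4 h, against 20.3 CPM untreated. At 500 nM and 24 h, Ikbkb was lower than untreated by 0.65 ± 0.21 and lower than at 4 h by 0.62 ± 0.18. It was also lower there than at 1 nM and 24 h, by 0.83 ± 0.18.

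Over both times, 9 of the 56 were higher at 500 nM and 5 lower, with a median of 0.22, where 7.63% of all genes were higher and 8.47% lower (median -0.03). The count of lower genes is near the share over all genes. The higher ones included Tnf (2.43 ± 0.24), Lta (3.85 ± 0.42), Tnfrsf9, a costimulatory receptor gene (2.76 ± 0.39), and the target gene Icam1 (0.94 ± 0.21). The lower ones included Map3k14, which encodes the NF-kB-inducing kinase of the non-canonical route (-1.18 ± 0.23), Tnip1, a relative of Tnip3 (-1.03 ± 0.15), and Traf5 (-1.08 ± 0.17). All these pathway calls are by edgeR at an adjusted p under 0.05 over 13479 genes.

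By rule, the gene most alike in pattern to each member was the one with the highest Pearson r of log2 CPM over the 9 libraries, among 7820 genes with a mean of at least 10 CPM. The values lay between 0.968 and 0.995. They were Fxr2 for Relb (r = 0.995), Slc45a3 for Rela (0.989), Dgat1 for Nfkb2 (0.982), 2310003H01Rik for Tnip3 (0.982), Gm8801 for Nfkbia (0.981), Psd for Tnfaip3 (0.978), Tnip2 for Nfkbiz (0.978), Nr4a2 for Rel (0.975), Wsb1 for Bcl3 (0.973) and Ibtk for Nfkb1 (0.968). The r ignores the size of a change. Fxr2 ran from 71.8 to 110 CPM where Relb ran from 84.8 to 337 CPM, and Slc45a3 from 0.23 to 66.7 CPM where Rela ran from 277 to 508 CPM. The 9 points share their libraries, and the values are given as a description.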

How the data were processed

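The deposited tables hold, per transcript, a read count and an RPKM value. Per the submitters' processing notes, CASAVA 1.8 and Bowtie 0.12.4 were used with mm8; how reads were assigned to transcripts, by strand or when multiply mapped, is not given in the sources used here. Per the labels, RNA was pooled from 3 samples and amplified by PCR, so counts are not independent molecules and intervals cover counting error only. The RPKM values deposited by the authors were used only to order genes by level.

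Of 24373 transcripts, the one with the highest mean count stood for each of 20418 symbols. Counts were filtered (filterByExpr, minimum count 10, total 15), scaled by TMM and tested with edgeR 4.0.16 in R 4.3.3 (quasi-likelihood, Benjamini-Hochberg over 13479 genes, threshold 0.05). Main effects of cytokine, dose and time with a term for untreated cells left 4 residual degrees of freedom. A dose by time term left 3, and this fit gave the effects at 1 dose or time and those over untreated cells. A cytokine interaction left 2. With 1 library per condition the spread comes from interactions left out, which are taken to be small, and p-values measure only spread between these pools. For part of the genes this did not hold in the fit of main effects. The dose by time term, left out there, was called for 8.81% of genes when added. Alternatives were DESeq2 1.42.0, limma-voom 3.58.1, RLE scaling, no filter, sums over transcripts, a dose by time term and leaving out each library. The members and lists were chosen with earlier results of these data known. Named genes were all 10 members and, from the pathway list, genes past the threshold and up to 4 more per role.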

Additional observations from a re-analysis of the deposited data

Results flagged for a closer look

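In edgeR's test of the difference in dose effect between times, Tnip3 was the single member called; DESeq2 called Nfkbiz as well (adjusted p = 0.026). The log2 change of 500 nM over 1 nM at 24 h exceeded that at 4 h by 5.46 ± 1.15 (SE; edgeR adjusted p = 0.015). The reads behind it were 130 at 500 nM, against 5 at 1 nM, in the libraries of 24 h, and 250 at 500 nM, against 329 at 1 nM, in those of 4 h. With 5 reads in 1 of the 4 combinations, the fitted size depends on the prior count. The adjusted p was between 0.056 and 0.083 when 1 of 3 libraries was left out: 1 nM, 4 h of IL-15; 500 nM, 4 h of IL-15; 500 nM, 24 h of IL-2.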

How the results depend on the processing

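Single member values were compared only for the 68 results at an unadjusted p under 0.05 in edgeR's fits. That choice makes a reversal unlikely. Of the 945 values recomputed for them, 861 kept direction and side of the threshold, 64 lost the call, 20 gained it and 0 reversed. Members called for dose were 5 with a dose by time term, against 3; for the dose by time term 2 with DESeq2, against 1; and for 1 nM and 24 h over untreated cells 2 with DESeq2, against 1. For time, DESeq2 and the dose by time term called 10 members, against 8. Leaving out 1 library gave 2 to 3 members for dose, 5 to 8 for time, 0 for IL-15 over IL-2 and both cytokine interactions, and 0 to 1 for dose by time. It gave 1 to 3 for dose at 4 h, 1 to 6 for dose at 24 h, 4 to 8 for time at 1 nM and 6 to 9 for time at 500 nM. Over untreated cells it gave 3 to 5 at 1 nM and 4 h, 5 to 7 at 500 nM and 4 h, 0 to 1 at 1 nM and 24 h and 0 to 3 at 500 nM and 24 h. The cause was not tested. Among all genes, 715 were called for time, against 2139 with DESeq2, 1175 with limma-voom, 3045 with the dose by time term and 82 to 1328 without 1 library. For dose 2170 were called, against 3550 with DESeq2, 4325 with the term and 927 to 2435 without 1 library. For dose by time 1188 were called, against 1818 with DESeq2 and 356 to 1159 without 1 library. At 1 nM, DESeq2 called 844 genes for time, against 390, and over untreated cells 1379 at 4 h, against 850, and 760 at 24 h, against 222. For cytokine by dose 2 genes were called, against 5 with DESeq2 and up to 174 without 1 library, and for cytokine by time 0, against up to 77. The labels carry no replicate numbers, so IL-15 and IL-2 libraries could be matched only by dose and time. The fit with a dose by time term, which compares them within each such pair, called 0 members. Depth limits Tnip3, with 1 to 179 reads per library.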
